A study of Ovis aries with 41 samples.

Results

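The RNA of 10 genes best known from tendon, cartilage and joints was followed in the skin of the sheep tail. The genes were PRG4, COMP, TNMD, THBS4, SCX, MKX, HAPLN1, ACAN, FMOD and CHAD. They were picked by symbol from a table of 31182 genes, and all 10 were among the 19444 genes past the filter on low counts for the comparison of positions. They were selected on earlier results of these data, in which PRG4 stood out at the mid-tail of A/A rams, so that contrast is given for PRG4 as a description with no test. Punches of whole skin were taken post mortem at 3 positions of the tail in adult Improved Jezersko-Solčava rams, namely base, mid-tail and tip. The 3 D/D rams carried 2 copies of the derived HOXB13 allele, which has an insertion in its promoter, the 4 A/A rams carried 2 copies of the ancestral allele, and the labels give no treatment. The base was taken at the first caudal vertebra. D/D tails are the longer ones, so the mid-tail and tip of D/D rams lay farther from the base, and genotype and distance cannot be told apart at these positions.

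Tendon and cartilage draw their strength from collagen fibrils and from the molecules that coat, space and hydrate them. PRG4, or lubricin, is the glycoprotein that lubricates joint surfaces and lets tendons glide. ACAN, or aggrecan, is the large proteoglycan that holds water in cartilage, and HAPLN1 is the link protein that fixes aggrecan and related proteoglycans to hyaluronan. COMP and THBS4 are pentameric thrombospondins that bind collagen. TNMD is a membrane protein of tendon cells, and SCX and MKX are transcription factors needed for normal tendons in mice. FMOD and CHAD are leucine-rich repeat proteins that bind collagen. Fibroblasts of the dermis also use several of these genes, so their RNA in skin is not by itself a mark of tendon or cartilage.

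In the sheep assembly ARS-UI_Ramb_v3.0 the 10 genes are protein coding and spread over 8 chromosomes. PRG4 spans bases 66828456 to 66844717 of chromosome 12, which also holds FMOD at 919068 to 929084. COMP (4240401 to 4251918) and HAPLN1 (81084157 to 81161129) lie far apart on chromosome 5. TNMD is at 134232130 to 134253741 of chromosome X. THBS4 is at 10970157 to 11023816 of chromosome 7, and SCX at 13601732 to 13603605 of chromosome 9. MKX is at 36243647 to 36312525 of chromosome 13, and CHAD at 35979090 to 35999543 of chromosome 11. ACAN is at 19709258 to 19777443 of chromosome 18. These are spans of whole genes, introns included.

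There were 41 libraries, 2 for each ram and position except for the mid-tail of D/D ram 871869 with 1, and they held 9177395 to 23431409 counts each. Counts were added up over the libraries of each ram at each position, which gave 21 ram samples of 17132063 to 37645752 counts, and levels are given as CPM, which are counts relative to the scaled total of the sample. The samples carried the RNA of skin, with 18399 to 25506 CPM summed over the keratinocyte genes at the mid-tail of D/D rams and 15775 to 31135 CPM at that of A/A rams. COL2A1, the main collagen of cartilage, was low at every position, with 0.0735 to 1.58 CPM in D/D samples and 0 to 1.61 CPM in A/A samples. COL10A1, of growth plate cartilage, had 6 reads over all samples. Other genes that cartilage uses were present, the 10 genes among them, and the chondrocyte list summed to 144 to 192 CPM in D/D samples and 122 to 226 CPM in A/A samples. SOX9, which skin appendages also use, made up most of that sum. Of the bone list IBSP had no reads, which allows up to 3, but the whole list summed to 248 to 393 CPM in D/D samples and 275 to 917 CPM in A/A samples. In such whole tissue, more cells of a type cannot be told apart from more RNA per cell.

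**Figure D1:**
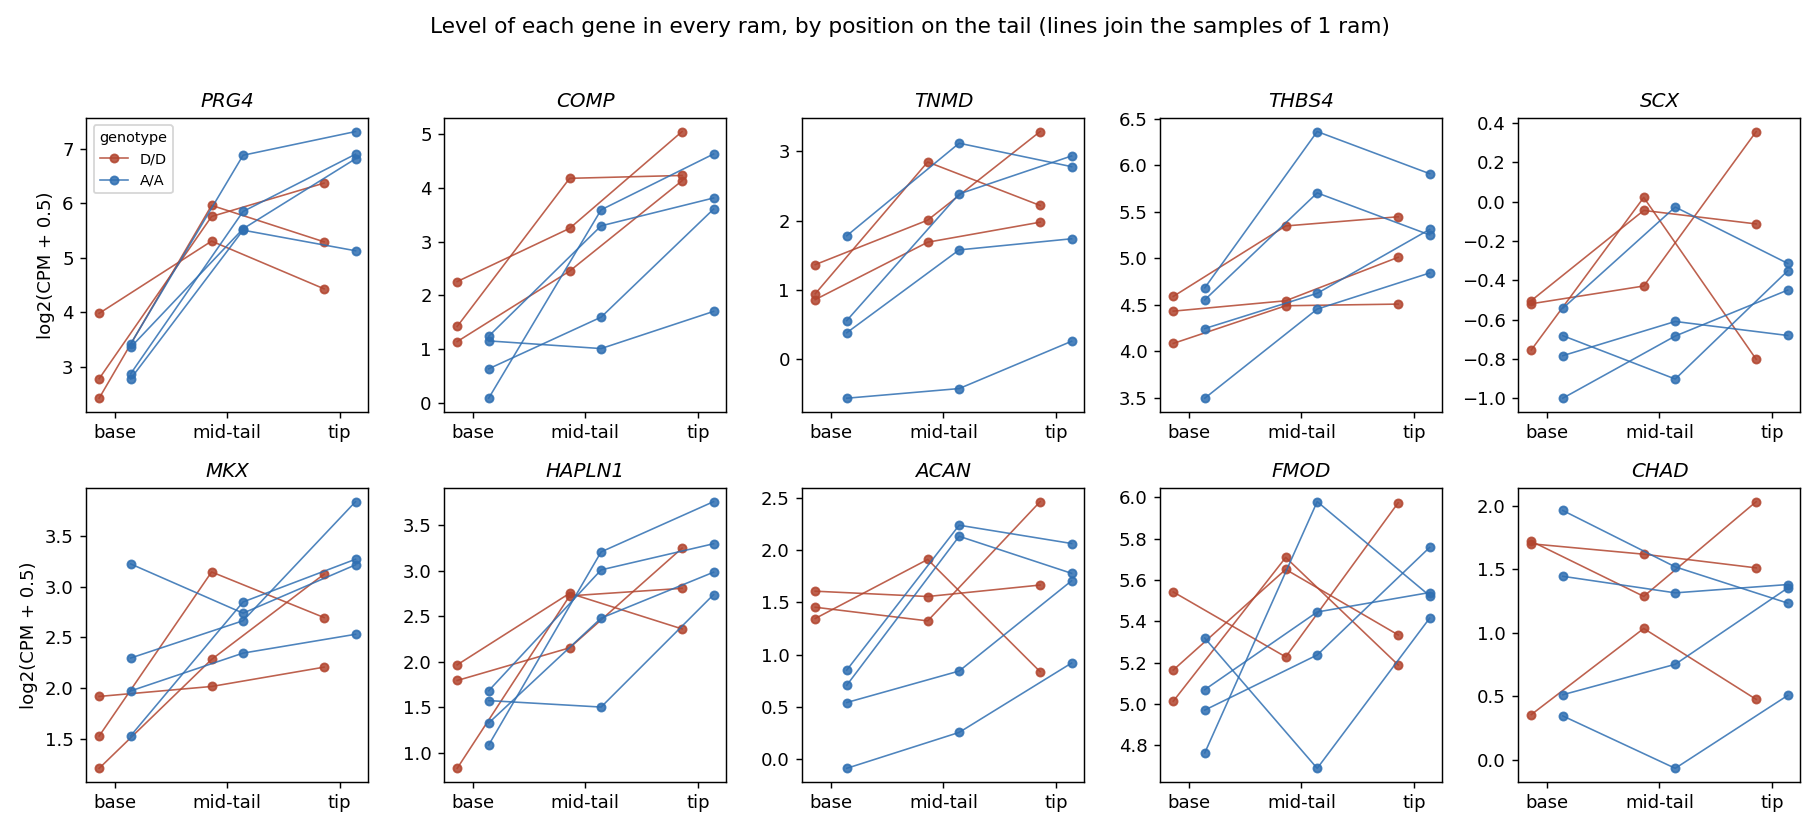
Level of each of the 10 genes as log2(CPM + 0.5), with a line for each ram through its base, mid-tail and tip samples, D/D rams in red and A/A rams in blue, on a scale of its own for each gene. PRG4 was higher at the mid-tail and tip than at the base in all 7 rams, whereas CHAD was higher at the tip in 4 of them, and A/A ram 835507 is the lowest line for TNMD.

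PRG4, the lubricant, was several times higher at the mid-tail and tip than at the base in most rams of both genotypes. Values of D/D rams are given in the order 871787, 871868 and 871869, and those of A/A rams in the order 835507, 871772, 871784 and 871932. At the base, PRG4 had 4.85, 6.36 and 15.3 CPM in D/D rams, against 6.80, 6.34, 9.72 and 10.2 CPM in A/A rams. At the mid-tail it had 61.8, 53.6 and 39.0 CPM in D/D rams, against 57.1, 44.9, 45.7 and 117 CPM in A/A rams. The tip samples had 38.7, 82.2 and 21.03 CPM in D/D rams, against 119, 34.4, 112 and 159 CPM in A/A rams. Every mid-tail and tip sample lay above the highest base sample, which was that of D/D ram 871869, the ram with the lowest tip value. In A/A rams PRG4 rose at the tip over the base, with a log2 fold change of 3.55 (SE 0.442, adjusted p = 0.00174, higher in 4 of 4 rams), a contrast that shares its base samples with the one that put the gene forward. In D/D rams it was 2.33 (SE 0.510, higher in 3 of 3 rams), and its adjusted p of 0.0522 missed the threshold of 0.05. This D/D value was 3.36 without D/D ram 871869 (adjusted p = 0.0146) and 1.55 without D/D ram 871868 (adjusted p = 0.370), and it was called by DESeq2 (adjusted p = 0.00218) and limma-voom (adjusted p = 0.0378). Over all rams, with both genotypes weighted equally, the log2 fold change at the tip was 2.94 (SE 0.339, adjusted p = 0.000243), which again includes those A/A base samples.

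PRG4 was also high at the mid-tail. At the A/A mid-tail, the contrast behind the choice of genes, PRG4 was higher than at the base by a log2 value of 2.92, with ratios between 4.71 and 11.6 in single rams. At the D/D mid-tail, whose samples had no part in that, the log2 fold change was 2.54 (SE 0.501), with ratios between 2.56 and 12.7 in single rams, and the adjusted p was 0.297. With single rams left out this D/D value ran from 1.99 to 3.39. The highest, which passed the test (adjusted p = 0.0405), was without D/D ram 871869, the ram with the smallest ratio. Between tip and mid-tail the log2 fold change was -0.21 in D/D rams (SE 0.462), with PRG4 higher at the tip in 1 of 3 rams, and 0.63 in A/A rams (SE 0.397), with PRG4 higher at the tip in 3 of 4 rams. Neither was called by edgeR (adjusted p = 1.00 in D/D rams and 0.999 in A/A rams).

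COMP, the cartilage oligomeric matrix protein, was higher at the mid-tail than at the base in 6 of 7 rams and higher still at the tip in all 7. At the base it had 2.18, 4.28 and 1.70 CPM in D/D rams, against 1.72, 0.559, 1.05 and 1.86 CPM in A/A rams. The mid-tail samples had 17.7, 9.01 and 4.98 CPM in D/D rams, against 1.51, 11.6, 2.52 and 9.32 CPM in A/A rams. Tip levels were 18.3, 32.7 and 17.1 CPM in D/D rams, against 2.75, 24.3, 11.7 and 13.6 CPM in A/A rams. Base and tip did not overlap in D/D rams, nor in A/A rams, although the tip of A/A ram 835507 stayed within the range of the D/D base samples. COMP rose by a log2 fold change of 3.10 at the D/D tip (SE 0.599, adjusted p = 0.0336) and by 2.96 at the A/A tip (SE 0.569, adjusted p = 0.0173). COMP was the 1 gene of the 10 called at the D/D tip in the main fit, which held the rams of both genotypes. That D/D call was lost without D/D ram 871787, 871868 or 871869 (adjusted p = 0.204, 0.145 and 0.319) or without A/A ram 871932 (0.0565). The A/A call was lost without ram 871772, 871784 or 871932 (adjusted p = 0.0533, 0.0582 and 0.122). Over all rams the log2 fold change was 3.03 (SE 0.414, adjusted p = 0.000711), and this held in every leave-out of a ram.

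THBS4, the related thrombospondin, was higher at the tip than at the base in all 7 rams, by smaller factors than COMP in most. At the base it had 23.6, 21.1 and 16.5 CPM in D/D rams, against 10.8, 25.2, 18.4 and 23.0 CPM in A/A rams. At the mid-tail it had 40.2, 22.8 and 22.0 CPM in D/D rams, against 21.4, 81.9, 24.1 and 51.6 CPM in A/A rams. At the tip it had 43.1, 31.7 and 22.2 CPM in D/D rams, against 28.2, 59.6, 39.2 and 37.6 CPM in A/A rams. The levels of tip and base overlapped between rams, but each ram had more at its own tip. In A/A rams the tip rise of THBS4 had a log2 fold change of 1.11 (SE 0.194, adjusted p = 0.0101). At the D/D tip the value was 0.63 (SE 0.221), with an adjusted p of 0.226. Over all rams THBS4 rose by 0.87 at the tip (SE 0.147, adjusted p = 0.00338).

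TNMD, tenomodulin, was higher at both distal positions than at the base in all 7 rams. At the base it had 1.31, 2.07 and 1.42 CPM in D/D rams, against 0.177, 2.94, 0.802 and 0.971 CPM in A/A rams. The mid-tail samples had 2.72, 3.52 and 6.69 CPM in D/D rams, against 0.245, 8.18, 2.48 and 4.72 CPM in A/A rams. The tip samples had 3.44, 9.25 and 4.15 CPM in D/D rams, against 0.696, 6.36, 2.84 and 7.14 CPM in A/A rams. A/A ram 835507 was the lowest at each position, with 4, 6 and 21 reads, and still had more at the tip than at the base. In A/A rams TNMD rose at the tip, with a log2 fold change of 1.95 (SE 0.365, adjusted p = 0.0150). In D/D rams it was 1.75 (SE 0.379), with an adjusted p of 0.0510. Over all rams it rose at the tip by 1.85 (SE 0.263, adjusted p = 0.000898) and at the mid-tail by 1.51 (SE 0.263, adjusted p = 0.0318). The A/A tip call was lost without A/A ram 871932 (adjusted p = 0.161). The mid-tail call was lost on leaving out any ram but A/A ram 835507, with adjusted p between 0.0603 and 0.191.

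MKX, the mohawk homeobox factor of tendon cells, had 2.38, 1.81 and 3.28 CPM in D/D rams at the base, against 4.41, 8.86, 3.42 and 2.39 CPM in A/A rams. At the mid-tail it had 8.36, 4.37 and 3.55 CPM in D/D rams, against 5.84, 6.18, 4.58 and 6.71 CPM in A/A rams. Tip levels were 5.98, 8.22 and 4.12 CPM in D/D rams, against 13.8, 8.80, 5.28 and 9.16 CPM in A/A rams. A/A ram 871772 alone had as much at the base as at the tip. Over all rams MKX rose at the tip by a log2 fold change of 1.13 (SE 0.268, adjusted p = 0.0247). The call was lost without A/A ram 835507 (adjusted p = 0.0569), A/A ram 871932 (0.0732), D/D ram 871787 (0.0935) or D/D ram 871868 (0.171). Within genotypes neither the D/D value of 1.26 (SE 0.410, adjusted p = 0.184) nor the A/A value of 1.00 (SE 0.346, adjusted p = 0.177) passed the test.

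SCX, scleraxis, had few reads in all samples. It had 2 to 28 reads per sample in D/D rams and 0 to 13 reads in A/A rams. Its highest level was 0.780 CPM, at the tip of D/D ram 871868, and the other 6 tip samples lay between 0.0735 and 0.424 CPM. The log2 fold change at the tip was 1.28 over all rams (SE 0.527, adjusted p = 0.201). SCX was higher at the tip in 6 of 7 rams and had an unadjusted p of 0.0275, but it was not called.

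HAPLN1, the link protein, was higher at the tip than at the base in all 7 rams. At the base it had 1.27, 2.96 and 3.40 CPM in D/D rams, against 2.47, 2.703, 2.01 and 1.62 CPM in A/A rams. The mid-tail samples had 6.10, 3.94 and 6.23 CPM in D/D rams, against 2.33, 7.55, 5.07 and 8.73 CPM in A/A rams. At the tip it had 6.49, 9.001 and 4.63 CPM in D/D rams, against 6.17, 9.32, 7.41 and 13.0 CPM in A/A rams. Every tip sample lay above every base sample. In A/A rams HAPLN1 rose at the tip, with a log2 fold change of 1.95 (SE 0.357, adjusted p = 0.0130), a call lost without A/A ram 871772 (adjusted p = 0.0506) or 871932 (0.105). In D/D rams it was 1.42 (SE 0.405), with an adjusted p of 0.131. Over all rams it rose by 1.68 (SE 0.270, adjusted p = 0.00235).

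ACAN, aggrecan, was not called in any comparison by edgeR in the main fit, on the ram samples with the default filter. DESeq2 called it in the tip contrast of A/A rams and in that of all rams. At the base it had 2.55, 2.24 and 2.04 CPM in D/D rams, against 0.441, 1.31, 0.956 and 1.13 CPM in A/A rams. At the mid-tail it had 2.44, 2.00 and 3.26 CPM in D/D rams, against 0.695, 4.22, 1.29 and 3.88 CPM in A/A rams. The tip samples had 2.67, 5.02 and 1.29 CPM in D/D rams, against 1.39, 3.68, 2.76 and 2.93 CPM in A/A rams. Only at the base did the genotypes not overlap. Within rams, the tip exceeded the base in 2 of 3 D/D rams, with a log2 fold change of 0.33 (SE 0.402, adjusted p = 0.797). It exceeded the base in 4 of 4 A/A rams, by 2.59 to 3.15 times, with a log2 fold change of 1.52 (SE 0.374) whose adjusted p was 0.0537. DESeq2 called ACAN there and limma-voom did not, and edgeR called it without a filter on low counts, without D/D ram 871868 or without D/D ram 871869. The difference of these changes, D/D minus A/A, was -1.19 (SE 0.548), with an unadjusted p of 0.0447 and an adjusted p of 0.789, so that a difference between genotypes was not shown. Over all rams ACAN was at 0.92 (SE 0.275, adjusted p = 0.0684), and DESeq2 called it where limma-voom did not.

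The leucine-rich repeat proteins had the smallest log2 fold changes of the 10 genes at the tip over all rams. FMOD, which controls the thickness of collagen fibrils, had 31.8 to 46.1 CPM at the base of D/D rams, against 26.7 to 39.4 CPM at that of A/A rams. Tip levels were 36.0 to 62.3 CPM in D/D rams, against 42.2 to 53.6 CPM in A/A rams. It was higher at the tip in each of the 7 rams, but by 1.07 to 1.74 times only, and the log2 fold change of 0.39 (SE 0.181) had an adjusted p of 0.261. CHAD, which binds cells to collagen in cartilage, had 0.780 to 2.80 CPM at the base of D/D rams, against 0.771 to 3.40 CPM at that of A/A rams. At the tip it had 0.891 to 3.59 CPM in D/D rams, against 0.922 to 2.10 CPM in A/A rams. Its log2 fold change was 0.10 (SE 0.241, adjusted p = 0.879), and it turned to -0.07 without A/A ram 835507.

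**Figure D2:**
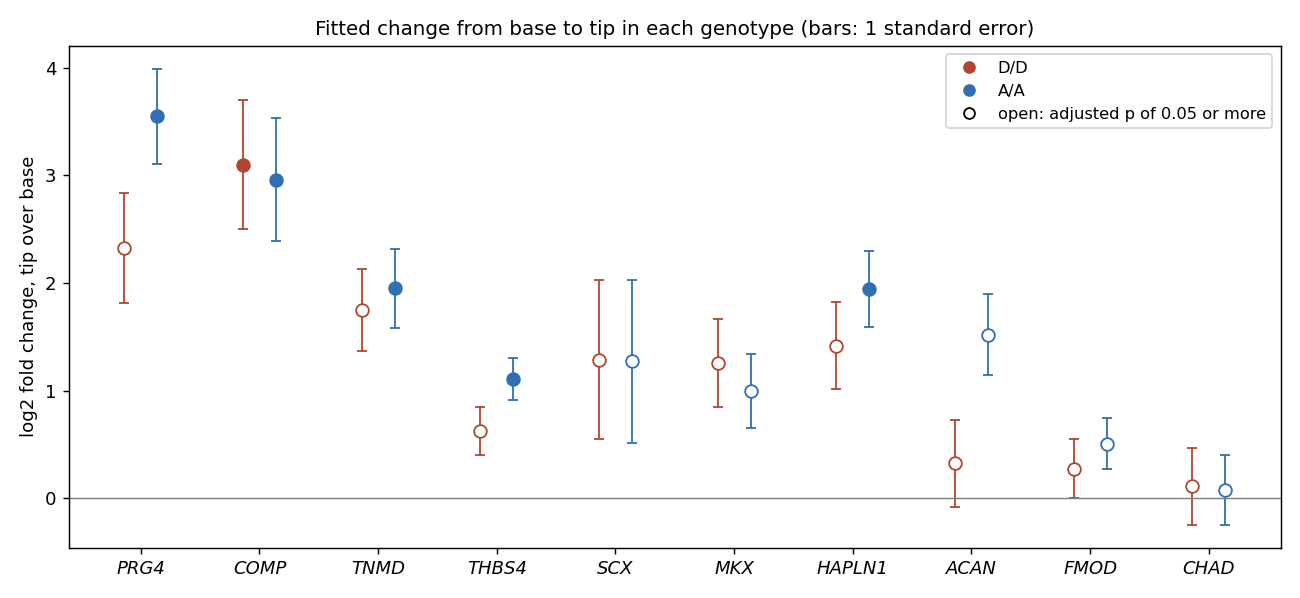
Fitted log2 fold change of the tip over the base for each gene, D/D rams in red on the left and A/A rams in blue on the right, with bars of 1 standard error and filled points at an adjusted p under 0.05. All 20 values are above 0, with 5 filled points in A/A rams and 1, COMP at 3.10, in D/D rams.

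At the tip of A/A rams 5 of the 10 genes rose, and 1.63% of all tested genes were called there. At the tip of D/D rams 1 of 10 rose, with 0.566% of all genes called. Over all rams 6 of 10 rose and none fell, with 4.52% of all genes called in either direction. The median log2 fold change of the 10 genes over all rams was 1.21, and that of all tested genes was -0.02. With the ram left out of the fit, 3 of the 10 genes were called over all rams, namely PRG4, COMP and HAPLN1. Of the 10 genes, 6 were higher at the tip in all 7 rams, as were 3.4% of all genes, and 3 of the 10, PRG4, TNMD and THBS4, were higher at the mid-tail in all 7, as were 1.94% of all genes. Since the genes were chosen with results of these samples known, these shares are no independent evidence of their direction.

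At the mid-tail of A/A rams 1 of the 10 genes, PRG4, was past the threshold, and so were 0.0257% of all genes, from which nothing is read. At the D/D mid-tail 0 of 10 were called and 0% of all genes, and DESeq2 called 1 of 10 and limma-voom 0. Of the 10 genes 5 had an unadjusted p under 0.05 there, as had 1311 of all 19444 genes. Over all rams TNMD was called at the mid-tail, with 0.134% of all genes called. PRG4 was past the threshold there as well, but that contrast holds the A/A samples behind its choice and is no test of it. THBS4 had a log2 fold change of 0.76 there (SE 0.148, adjusted p = 0.0602), COMP one of 1.87 (SE 0.412, adjusted p = 0.0891) and HAPLN1 one of 1.21 (SE 0.272, adjusted p = 0.0948). Between tip and mid-tail 0 of 10 were called in A/A rams, D/D rams or all rams, where 0%, 0% and 0.0257% of all genes were called. In these comparisons COMP had an unadjusted p under 0.05 in A/A rams and over all rams, the other members none, and neither DESeq2 nor limma-voom called any of the 10. Of all 19444 genes, 787 had such a p in A/A rams and 1045 over all rams.

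None of the 10 genes was called between genotypes by edgeR, nor was any gene of the whole table (0% each for base, mid-tail and tip). DESeq2 and limma-voom also called 0 of the 10 at each position, while DESeq2 called 20, 31 and 61 other genes there. At an unadjusted p under 0.05 there was 1 member at the base, ACAN, and 0 at the mid-tail and tip, and SCX did not pass the filter at the base and tip, which left 9 genes tested there. Of all genes tested, 567, 1014 and 1824 were under 0.05 unadjusted at base, mid-tail and tip. ACAN at the base had a log2 fold change, D/D over A/A, of 1.24 (SE 0.402, unadjusted p = 0.0115, adjusted p = 1.00). Of the 30 pairs of D/D and A/A groups, 10 genes at 3 positions, this was the 1 that did not overlap, whereas such non-overlap was found for 4.69% of the genes tested with base samples, 8.06% with mid-tail samples and 15.1% with tip samples. PRG4 at the tip was at -1.18 (SE 0.578, unadjusted p = 0.0762, adjusted p = 0.458), with the D/D and A/A samples overlapping.

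The change along the tail was not shown to differ by genotype either. In the test of the D/D minus A/A change edgeR called 0 of 10 genes for the tip and 0 of 10 for the mid-tail, with 0% of all genes in both. DESeq2 and limma-voom also called 0 of the 10, while DESeq2 called 30 other genes for the tip and 15 for the mid-tail. At an unadjusted p under 0.05 were ACAN for the tip and THBS4 for the mid-tail, as were 1188 and 1013 of all 19444 genes. For PRG4 the tip value was -1.22 (SE 0.643, adjusted p = 0.789), and it ran between -2.004 and -0.19 when single rams were left out.

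Genes related to the 10 by family or function went both ways. Among the other thrombospondins, THBS1, an adhesive protein of wounds and platelets, rose at the tip by a log2 fold change of 0.52 (SE 0.133, adjusted p = 0.0371), and THBS3 fell by 0.68 (SE 0.186, adjusted p = 0.0486). THBS2 was at -0.31 (SE 0.158, adjusted p = 0.318). Of 13 other small leucine-rich repeat genes tested, 0 rose and 3 fell, namely PODN, OGN, which binds collagen fibrils, and KERA, the keratan sulfate carrier of cornea, at -1.15, -0.78 and -0.98. The median of these 13 genes was -0.23. Of 13 other genes of hyaluronan and its proteoglycans, 0 rose and 1 fell, LYVE1, a hyaluronan receptor of lymph vessels and some macrophages, at -2.57 (SE 0.353, adjusted p = 0.000741).

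Other genes of tendon were mixed as well. Of 19 tested, 1 rose and 3 fell over all rams. TNC, tenascin C, a matrix protein of tendon and of remodelling tissue, rose by 1.71 (SE 0.203, adjusted p = 0.000276). It had 64.8 to 96.6 CPM at the D/D tip and 24.9 to 34.8 CPM at the D/D base, and 77.8 to 143 CPM at the A/A tip and 15.3 to 48.2 CPM at the A/A base. TPPP3, a marker of tendon sheath cells in mice, fell by 1.17, SIX2 by 1.36 and COL5A1 by 0.69. Of 15 genes of joint lining and articular cartilage, 0 rose and OSR1 fell, by 1.02. Of 9 chondrocyte genes that could be tested, none was called by edgeR (2 of 9 at an unadjusted p under 0.05), and the smallest p-values were those of MATN3 at 0.93 (adjusted p = 0.0815) and CNMD, chondromodulin, at 1.65 (adjusted p = 0.140). CNMD had 0 to 0.629 CPM in any sample, so its values rest on few reads.

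**Figure D3:**
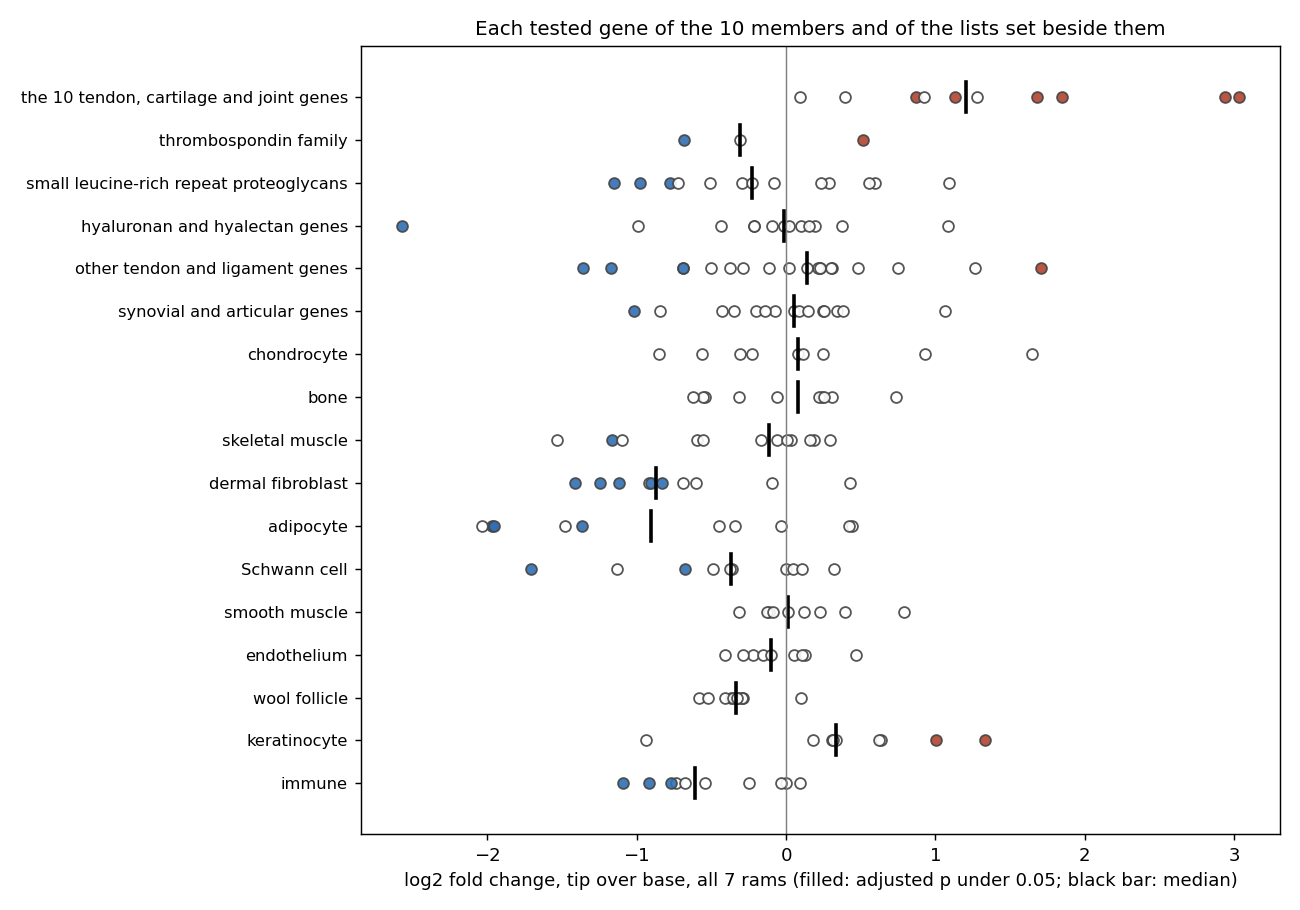
Log2 fold change of the tip over the base, over all 7 rams, for each tested member of the 10 genes (top row) and of 16 lists of related genes and cell types, with filled points at an adjusted p under 0.05 and black bars at the medians. The 10 genes had a median of 1.21, the list of dermal fibroblast genes one of -0.87 and the keratinocyte list one of 0.34.

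Genes of other skin cells also differed between tip and base. Of 10 dermal fibroblast genes 5 fell at the tip over all rams, COL1A1, COL3A1, DPP4, PI16 and MFAP5, and the sum over all 10 was 5286 to 11522 CPM at the D/D tip and 8849 to 15806 CPM at the D/D base. In A/A rams it was 1676 to 11280 CPM at the tip and 11348 to 19699 CPM at the base, with the lowest sum in ram 835507. Of 9 keratinocyte genes KRT1 and FLG, both of the upper epidermis, rose. In this list 8 genes had log2 fold changes above 0, and IVL was at -0.94 (SE 0.315, adjusted p = 0.107). The keratinocyte sum was 19319 to 43766 CPM at the D/D tip and 13815 to 24165 CPM at the D/D base. In A/A rams it was 22312 to 38585 CPM at the tip and 13463 to 27638 CPM at the base. Of 10 adipocyte genes 3 fell, of 10 Schwann cell genes 2, of 10 immune genes 3 and of 12 skeletal muscle genes 1, TTN. Summed over the muscle list, levels were 32.1 to 52.6 CPM in D/D rams and 34.98 to 64.6 CPM in A/A rams at any position. In the lists of bone, smooth muscle, endothelium and wool follicle none of 10, 9, 9 and 11 genes was called by edgeR (2, 1, 1 and 0 at an unadjusted p under 0.05), and the wool follicle sum was lowest, at 901.5 CPM, in the tip of A/A ram 835507. The part of these shifts in the changes of the 10 genes was not tested.

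A/A ram 835507 stood apart in several lists. Its adipocyte sums were 3879, 4347 and 3716 CPM at base, mid-tail and tip, against 663 to 1552 CPM in the other rams, and its bone sums of 917, 540 and 845 CPM lay above the 248 to 411 CPM of the others. It had the lowest fibroblast and wool follicle sums at the tip, the lowest TNMD at each position and the lowest COMP at the mid-tail and tip. Its ACAN and THBS4 were the lowest of all rams at the base and mid-tail, its HAPLN1 at the mid-tail and its SCX at the base. It did not have the lowest COMP at the base, the lowest ACAN, THBS4 or HAPLN1 at the tip, nor the lowest PRG4 at any position. Without it, 5 of the 10 genes were called at the A/A tip and 5 over all rams, with MKX the one lost over all rams. The 2 libraries of a ram and position varied as well. The larger library had a median of 1.68 times the level of the smaller one for PRG4, 1.56 times for COMP and 1.21 times for THBS4. The widest gaps were 16.3-fold for COMP and 7.91-fold for ACAN, both at the mid-tail of A/A ram 871784, where library 1 held 68 reads of COMP and 33 of ACAN and library 2 held 4 of each. TNMD had 30 and 41 reads in the same libraries. Without that library 2, a setting chosen after seeing the data, 6 genes were called at the A/A tip, 3 at the D/D tip and 7 over all rams. Calls over all genes rose at the A/A tip as well, from 317 of 19444 genes to 424 of 19367.

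Variation between rams of the same group was not shared by all 10 genes. The mean of each genotype and position was subtracted from log2(CPM + 0.5), and genes were correlated over the 21 ram samples. Samples of different positions share rams, so the values are descriptions. PRG4 was close to unrelated to COMP (r = 0.00), TNMD (r = -0.03) and THBS4 (r = -0.06). TNMD went with ACAN (r = 0.85) and HAPLN1 (r = 0.72), and THBS4 with ACAN (r = 0.80) and COMP (r = 0.67). Of the A/A rams, 835507 had the lowest TNMD, ACAN and THBS4 at each position. Ram 871772 had the highest ACAN and THBS4 of the A/A rams at each position, and the highest TNMD at base and mid-tail. Both rams were named after their values were seen, and their part in these correlations was not tested. A/A ram 871772, picked here after its values were seen, had the lowest PRG4 of the A/A tips and the highest COMP and THBS4.

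**Figure D4:**
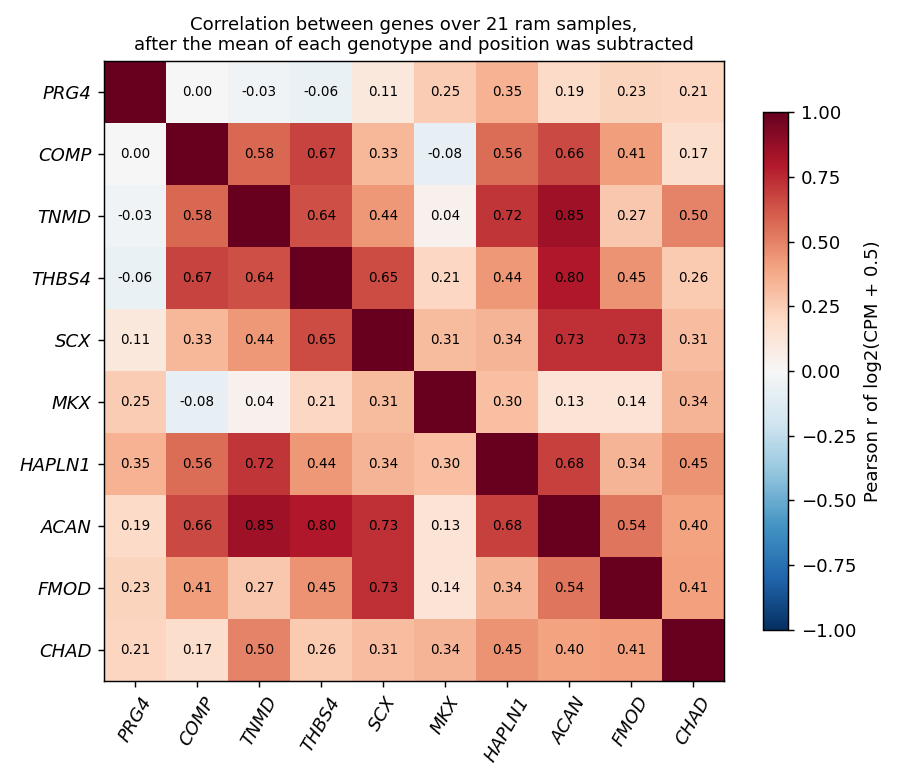
Pearson correlation of log2(CPM + 0.5) between the 10 genes over 21 ram samples, after the mean of each genotype and position was subtracted, with red for positive and blue for negative values. The values of PRG4 with COMP, TNMD and THBS4 lie between -0.06 and 0.00, and that of TNMD with ACAN is 0.85.

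With the mean of each ram subtracted instead, so that position remains in the values, the nearest genes of at least 1 CPM were found for each member over the 21 ram samples. For PRG4 they were CACNA1D (r = 0.96), a calcium channel subunit, DDIT4L (0.96) and APOD (0.94), a lipid carrier. For COMP they were KRT2 (0.97), a keratin of the upper epidermis, MAP6 (0.95) and UNC5C (0.93), a netrin receptor. TNMD and HAPLN1 were near to each other (0.91), TNMD being also near to DKK3 (0.90) and COL15A1 (0.90), and HAPLN1 to SPON1 (0.93) and NSG1 (0.91). For THBS4 they were GPR173 (0.94), P2RX1 (0.93) and HOXC10 (0.91), for MKX ABI2, PTGFR and HEY2 (0.91 each) and for ACAN TMEM119 (0.93), CCDC3 (0.93) and MCF2L (0.87). FMOD was nearest to PODNL1, ADCY2 and ADSS1 (0.89, 0.89 and 0.87), whereas CHAD reached 0.71 at most, with JADE2. Within rams, on the same values, the correlation with the summed keratinocyte genes was 0.86 for COMP and 0.59 for PRG4, and without subtraction it was 0.65 for COMP and 0.47 for PRG4. Within rams it ran from -0.32 for CHAD to that of COMP, with HAPLN1 at 0.74. Other lists reached similar sizes, such as -0.73 for COMP with the immune list and 0.63 for PRG4 with the other thrombospondins. SCX, at under 1 CPM, was not searched for near genes.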

How the data were processed

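The authors deposited strand-specific read counts for RefSeq genes from featureCounts, whose version is not given in the sources used here. Reads had been checked with FastQC 0.11.9 and aligned with ContextMap and BWA (genome ARS-UI_Ramb_v3.0), and the RNA was selected with oligo(dT). All deposited values are whole, so no estimated counts had to be rounded. Libraries were added up so that a ram counts once at a position. In R 4.3.3, edgeR 4.0.16 (TMM scaling, its default filter) gave quasi-likelihood tests with rams blocked where positions were compared. The p-values were adjusted after Benjamini-Hochberg over 19444 genes for positions and 17738, 17996 and 17842 between genotypes at base, mid-tail and tip. A gene rose or fell at an adjusted p under 0.05. Standard errors are the log2 fold change over the root of F. Each ram gave all 3 positions, and 20 of the 21 within-ram pairs had deviations correlated over 0.1 (range 0.0539 to 0.851). Of 20 library pairs none was identical, and each differed beyond sampling noise. CPM use TMM-scaled totals, and 0.5 was added before logs. Whether library pairs were separate punches is not stated, so p-values rest on rams and not on libraries. Between positions, with rams blocked, they measure the spread of the change among rams. Between genotypes, with no block, they measure the spread of levels among rams.

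The 10 genes, the 16 lists of related genes and cell type markers and the tests were chosen with earlier results of these data known. The text names all 10 genes, up to 4 called genes of a list by smallest p, or the 2 with the smallest p, and the 3 nearest genes by correlation, and COL1A1 was named beyond this rule after its value was seen. The tests were also run on simulated counts. Those counts held no differences of level between rams, unlike the data, so they cannot show how the tests between genotypes hold here. Alternatives were DESeq2 1.42.0, limma-voom 3.58.1, single libraries, no block, library number as a block, each library alone, RLE, library totals, other filters, each genotype alone, each ram left out and the study's thresholds of 0.01 and 1. Coordinates come from a table of RefSeq genes on this build, in which all 10 matched. No sequences were used here.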

Additional observations from a re-analysis of the deposited data

Results flagged for a closer look

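Each of the 30 sets of 4 A/A values (10 genes at 3 positions) was searched for a ram far from the other 3, and 1 was found, where chance alone gives about 1 in 20. PRG4 at the A/A mid-tail had 117 CPM in ram 871932, against 44.9 to 57.1 CPM in the other 3 rams. Both libraries of that sample were high, with 131 and 106 CPM. The log2 difference of PRG4 between the A/A mid-tail and base was 2.75 without this ram and 2.92 with it. Groups of 3 D/D rams were too small for this search. No gene of the 10 moved one way in all rams of one genotype and the other way in all rams of the other.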

How the results depend on the processing

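Of 674 recomputed log2 fold changes, 568 kept their direction and their side of the threshold, 44 lost and 60 gained a call, and 2 turned sign. The 568 include those of PRG4 at the A/A mid-tail, which had no test. There a value within 1 standard error of the main one counted as kept, whatever its call. CHAD at the tip over all rams ran from -0.071 (without A/A ram 835507) to 0.26 (without A/A ram 871772), and ACAN at the D/D tip from -0.25 (without D/D ram 871868) to 0.64 (without D/D ram 871869). The number of the 10 genes called moved more. At the A/A tip (5) it was 6 by DESeq2 or without a filter, 7 on single libraries, 2 with the ram left out of the fit, 3 on library 1 alone, 1 on library 2 alone, 3 with each genotype fitted on its own, 1 at the study's thresholds and 2 to 6 with single rams left out. Counts above 0 at the A/A mid-tail include PRG4, which had no test there, so nothing is read from them. At the A/A mid-tail (1) it was 4 by DESeq2, 6 on single libraries, 0 on library 2 alone, 2 without a filter or without mid-tail library 2 of A/A ram 871784, a setting chosen after seeing the data, 0 at the study's thresholds and 0 to 2 with single rams left out. At the D/D tip (1) it was 4 by DESeq2, 2 by limma-voom, with RLE or on library 1 alone, 5 on single libraries or with each genotype on its own, 0 with no ram block, on library 2 alone or at the study's thresholds, 3 without a filter or without that library and 0 to 3 with single rams left out. At the D/D mid-tail (0) it was 1 by DESeq2 or on library 1 alone, 2 on single libraries and 0 to 1 with single rams left out. Over all rams it was 7 at the tip (6) by DESeq2 or on single libraries, 3 with no ram block or on library 2 alone, 4 at the study's thresholds and 5 to 6 with single rams left out. At the mid-tail (2) it was 5 by DESeq2 or on single libraries, 1 by limma-voom, with no ram block or at the study's thresholds, 0 on library 2 alone, 4 without a filter and 1 to 4 with single rams left out. PRG4 was 1 of those 2 in the main fit and had no test there either. The cause was not tested. Counts over all genes moved as well. At the tip over all rams 878 genes were called, against 1450 by DESeq2, 2237 on single libraries, 122 with no ram block and 191 on library 2 alone. At the A/A tip it was 317, against 810 by DESeq2 and 18 with no ram block, and at the D/D tip 110, against 501 by DESeq2 and 854 with each genotype on its own.

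The labels do not say that a library number marks a shared batch. The differences of library 1 and 2 correlated between -0.51 and 0.47 among 20 ram samples (median 0.00), so the numbers were not taken to pair samples. With the library number as a replicate block on single libraries, 7 genes were called for the tip both in A/A rams and over all rams, 6 at the A/A mid-tail, 5 at the D/D tip, 1 at the D/D mid-tail and 5 over all rams at the mid-tail. In that setting calls among all 18297 tested genes were also more numerous than in the main fit, with its 19444 genes. In A/A rams 1281 genes were called for the tip, against 317, and 379 for the mid-tail, against 5. In D/D rams these numbers were 946, against 110, and 42, against 0. Over all rams they were 2191, against 878, and 398, against 26. Single libraries of a ram are not separate rams, and those counts are of libraries. In the other comparisons, tip against mid-tail and between genotypes, the count stayed at 0 in every setting. The genes nearest by correlation depend on the centring. Without it, TNMD and ACAN kept 1 of their 3, and the other members with such genes kept 0. SCX rests on at most 28 reads a sample, and 3 D/D rams limit what can be shown between genotypes.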
